A study of Rattus norvegicus with 12 samples.

Results

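The genes described here are those of the potassium channels in the rat colon, taken as every probe of the array, control spots left out, whose gene name starts with Kcn followed by a letter. They were 124 of 30367 probes, with 92 of 26514 gene names. The rule used names alone, but it was set with earlier results of these data known. Colonic tissue was taken near the anus from 12 male Wistar rats of 200 to 250 g, killed on postnatal day 60, with 1 array per rat and 4 rats per group. Rats C1 to C4 of Group C stayed with their dams and received placebo, that is, 100 µl of saline by gavage from day 3 to day 60. Rats M5 to M8 of Group M underwent neonatal maternal separation (NMS), 180 min a day from day 2 to day 14, a model of visceral hypersensitivity, and received the same placebo. Rats D9 to D12 of Group D underwent NMS and received VSL#3, a mixture of probiotic bacteria, from day 3 to day 60. The labels and the methods of the study state slightly different doses of VSL#3. All rats had colorectal distension (CRD) before the tissue was taken, so no group shows the colon without it. The study analysed 11 of the 12 arrays without rat D12 and gave no reason. Here too the means, tests and counts rest on 11 arrays, with 3 rats in Group D, and D12 is given beside them. Groups C and M lay on 1 slide and Group D on another, scanned later, so that Group D cannot be told apart from its slide.

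Potassium channels let potassium leave or enter the cell down its gradient and so set the resting potential and end the action potential. In the colon, channels of smooth muscle and of interstitial cells of Cajal, the pacemakers of the gut, shape the slow wave, those of neurons limit firing, and those of the epithelium recycle potassium and supply the driving force for chloride secretion. The pore-forming families are voltage-gated (Kcna to Kcnd, Kcnh, Kcnq, with the silent Kcnf, Kcng, Kcns and Kcnv), inwardly rectifying (Kcnj), tandem-pore leak channels (Kcnk), calcium-activated (Kcnm, Kcnn) and sodium-activated (Kcnt), and Kcnab, Kcne, Kcnip and Kcnmb encode their auxiliary subunits.

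Every value is the log2 signal of a probe less that of the 75th percentile of its array, so that 0 is a bright probe and -8 lies near background. Values of the same probe are compared between rats, never those of different probes. The probes are 60 bases long, and their sequences are shown for genes on which the results turn and whose probe holds an open reading frame. Positions refer to rn4, the build the files name. Kcnn4 is shown because Group M did not overlap with Groups C and D by either probe, and the first of them spans 1734 bases of the genome, more than its own length.
Kcnn4, probe A_64_P057566, chr1:79625914-79627647, plus strand: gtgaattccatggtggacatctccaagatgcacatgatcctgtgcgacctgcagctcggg
Kcnn4, probe A_64_P054257, chr1:79627673-79627732, plus strand: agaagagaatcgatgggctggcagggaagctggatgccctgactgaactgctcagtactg
Kcnj12, probe A_64_P129004, chr10:47214419-47214478, plus strand: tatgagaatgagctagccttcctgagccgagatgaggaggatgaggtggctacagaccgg
Kcnd2, the brighter of its probes, A_64_P154548, chr4:48046217-48046276, plus strand: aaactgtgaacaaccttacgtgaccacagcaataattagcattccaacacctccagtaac
Kcnk2, a dim probe shown because the bright one holds no open frame, A_64_P053471, chr13:105419270-105419329, minus strand: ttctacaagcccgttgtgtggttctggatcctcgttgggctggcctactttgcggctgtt

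A minority of the potassium channel probes gave a clear signal in every rat. The scanner software called 55 of the 124 probes (44.4%) well above background on all 11 arrays, 35 (28.2%) on some of them and 34 (27.4%) on none. Over the whole array, 67% of 30367 probes passed on all 11 arrays and 20.1% on none. With the brightest probe of each gene, 47 of 92 genes passed on all 11 arrays and 22 on none. The number above background in a single rat was 67 to 75 in Group C, 65 to 68 in Group M and 67 to 72 in Group D, and it was 71 in D12. The ranges of the groups overlapped.

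**Figure D1:**
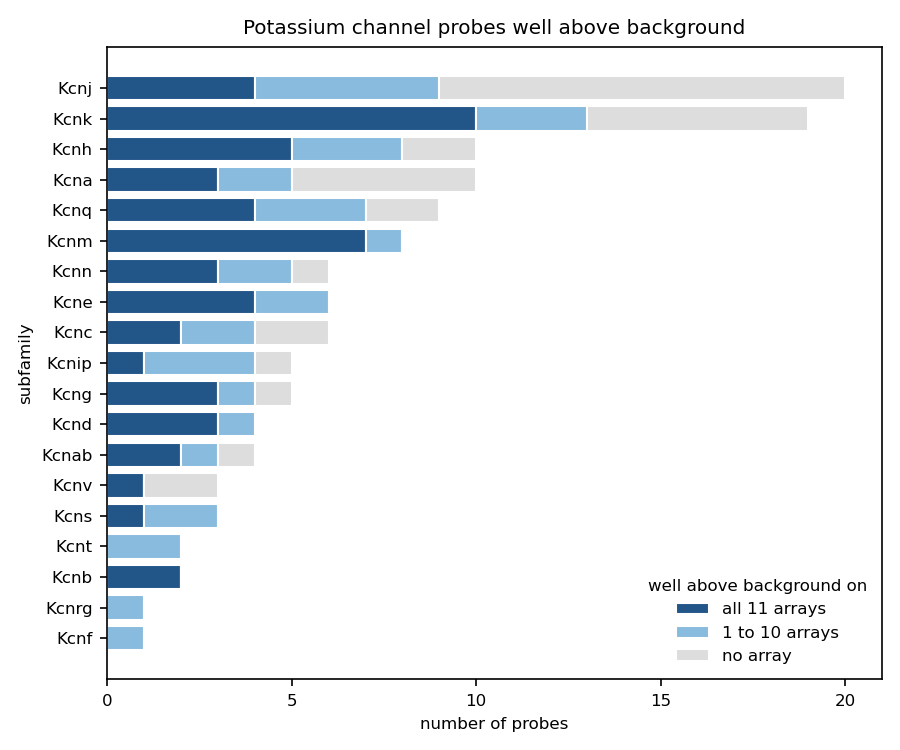
Number of potassium channel probes (horizontal axis) in each subfamily (vertical axis), split by whether the probe was well above background on all 11 arrays, on 1 to 10 arrays or on none. Kcnm had 7 of 8 probes above background on every array, Kcnk 10 of 19, and Kcnj had 11 of 20 on none.

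The subfamilies differed in this share. The BK channel family Kcnm, large-conductance channels opened by calcium and voltage, had 7 of 8 probes well above background on every array and the Kcnd family 3 of 4. Kcnk had 10 of 19, Kcnh 5 of 10, Kcnq 4 of 9, Kcnn 3 of 6 and Kcna 3 of 10. The inward rectifiers were the dimmest of the large subfamilies, with 4 of 20 Kcnj probes on every array and 11 of 20 on none. Some of the probes below background belong to channels known from other tissues. No probe of Kcnj1, the ROMK channel of the kidney, or of Kcnj10, Kcnj16 or Kcnj15 was well above background on any of the 11 arrays, nor was Kcna1, Kcna2 or Kcna4, the axonal and neuronal Kv1 channels, or Kcnk18 and Kcnk4, leak channels of sensory neurons. A probe near background does not show that the RNA is absent.

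The comparison of Group M with Group C asked how NMS changed these genes. No potassium channel probe passed limma, a linear model with a moderated variance fitted to all probes, at the adjusted threshold, a p of 0.05 or less after Benjamini-Hochberg adjustment over the whole array (0.207% of all probes did). By the criterion of the study's methods (variance analysis followed by Tukey's test, each with p of 0.05 or less and no adjustment over probes, and a 2-fold difference of the means), 3 of 124 probes fell in Group M and 0 rose, against 0.962% and 1.37% of all probes. They were both probes of Kcnd2 and that of Kcns1. At the nominal level, meaning a limma p of 0.05 or less before adjustment, 22 probes were lower and 6 higher, a share of 22.6% where 22.7% of all probes passed, so that the number was at the background. At p of 0.01 or less there were 13 probes, where 8.01% of all probes passed. The split was 17.7% lower and 4.84% higher, where 12.9% and 9.86% of all probes were lower and higher. Values of the groups did not overlap for 14 probes, 10 lower and 4 higher, a share of 11.3% against 9.24% of all probes (5.17% lower and 4.07% higher). The median difference of the 55 probes well above background on every array was -0.13, and that of all 20352 such probes of the array was -0.03. A single rat weighed on these counts, since without M6 17 potassium channel probes passed limma at the adjusted threshold, while 16.2% of all probes did. By the criterion of the methods the number was 5 without C2 or M6, 1 without C1, C3, C4 or M8, and 0 with the normexp background correction. Of all probes, 3.3% met it without C2, 5.85% without M6, 1.26% to 1.51% without C1, C3, C4 or M8, and 1.04% with normexp.

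The comparison of Group D with Group M asked what VSL#3 changed in NMS rats. It shares the Group M rats with the comparison above, so that opposite signs in them are not independent of each other. No potassium channel probe passed limma at the adjusted threshold (0.161% of all probes did). By the criterion of the methods 4 probes rose, those of Kcne2, Kcnj12, Kcnk2 and Kcns1, and 0 fell, against 1.14% and 1.51% of all probes. At the nominal level, 25 probes were higher and 7 lower, a share of 25.8% where 21.6% of all probes passed. Of all probes, 11.8% were higher and 9.85% lower. At p of 0.01 or less there were 11 probes, where 7.82% of all probes passed. Groups did not overlap for 23 probes, 20 higher and 3 lower, a share of 18.5% against 15.9% of all probes (9.06% higher and 6.89% lower). The median difference of the 55 probes above background was 0.25, against 0.02 for all such probes. Without M6 17 potassium channel probes passed limma, where 15% of all probes did. Without M5 the number at the nominal level was 21, where 17.8% of all probes reached it. The criterion of the methods was met by 2 probes with all 12 arrays or without D11, by 6 without M6 and by 0 with normexp. Of all probes, 0.948% met it with all 12 arrays, 1.71% without D11, 6.67% without M6 and 1.02% with normexp.

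Group D against Group C showed few differences. No potassium channel probe passed limma at the adjusted threshold or the criterion of the methods (0.00659% and 0.366% of all probes did). At the nominal level, 4 probes were higher and 3 lower, a share of 5.65% where 5.98% of all probes passed (3.15% higher and 2.83% lower). At p of 0.01 or less there was 1, Kcnh1, where 1.4% of all probes passed. Values did not overlap for 11 probes (7.6% of all probes did not), and the median difference of the 55 probes was 0.05. The number at the nominal level was 2 without D9, 11 without C2 and 12 with all 12 arrays. Of all probes, 4.07%, 5.09% and 6.78% reached it under these settings. The criterion of the methods passed 1 probe without C4, without D10 or with all 12 arrays. It passed 0.425%, 0.356% and 0.352% of all probes there.

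**Figure D2:**
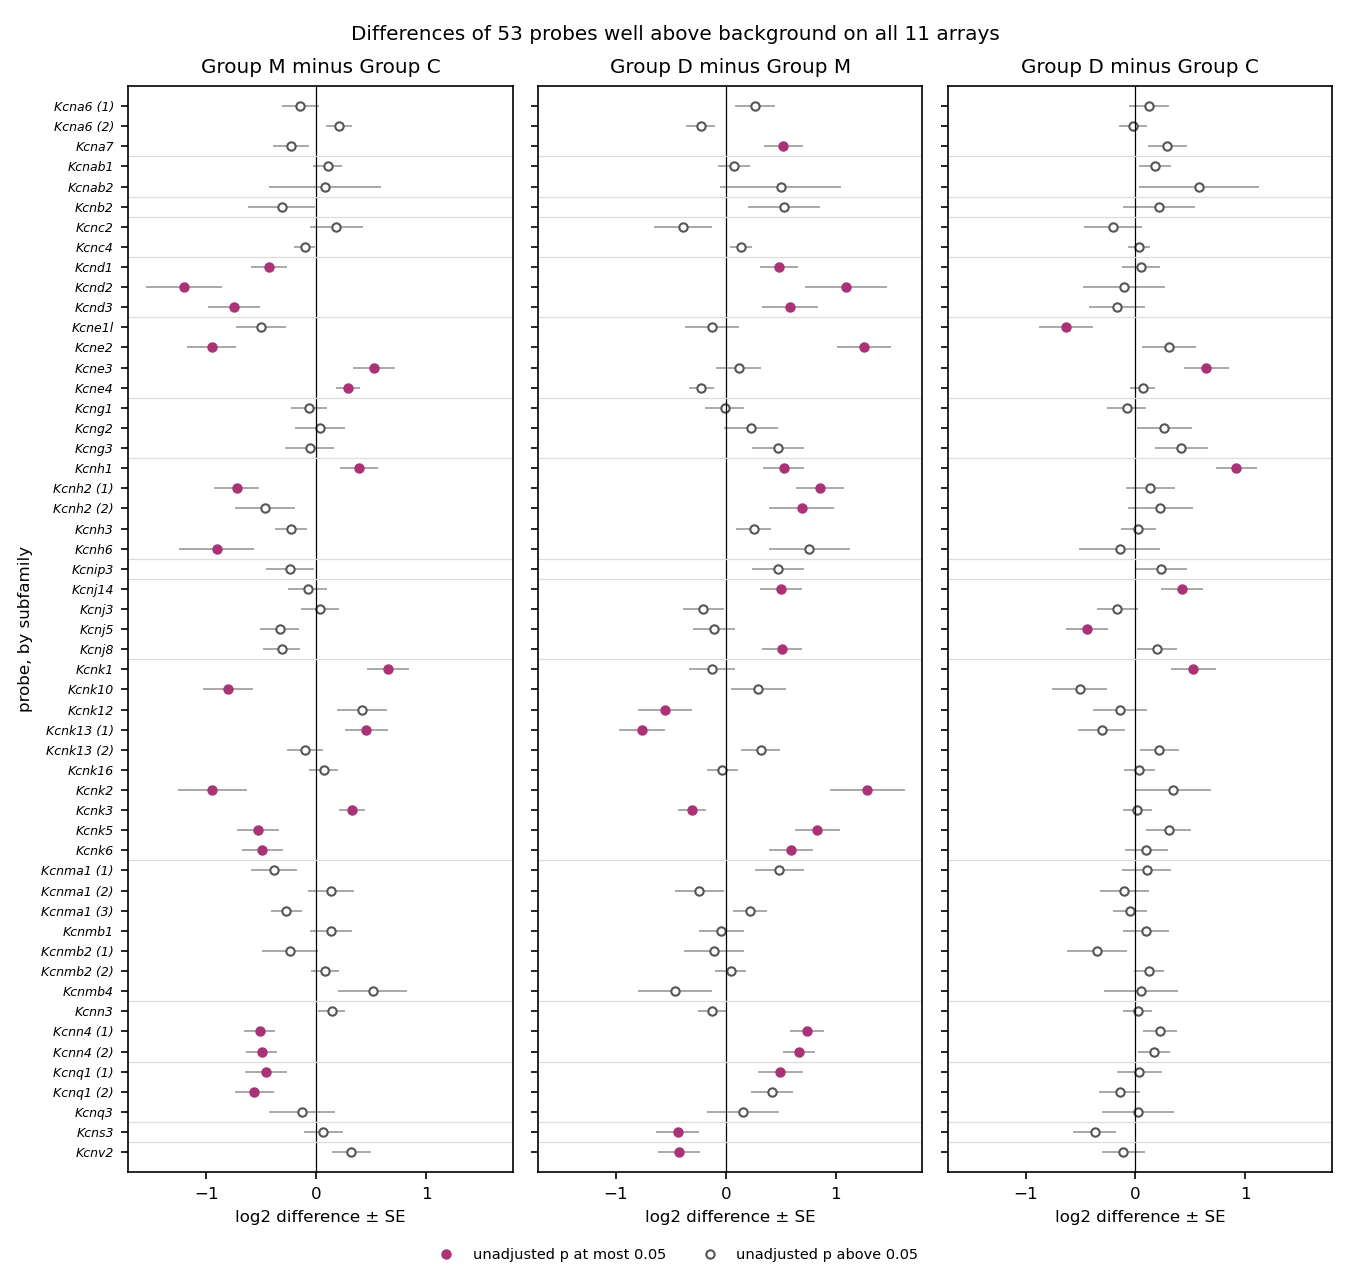
Log2 difference (horizontal axes, bars are the standard error from limma) of 53 of the 55 potassium channel probes well above background on all 11 arrays (vertical axis, grouped by subfamily, numbers in brackets count the probes of a gene). Filled points reached the nominal level (limma p of 0.05 or less before adjustment), and none passed the adjusted threshold. In Group M minus Group C 32 of the 53 probes lie below 0, and in Group D minus Group M 34 lie above it.

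By subfamily, the sign was the same throughout for some families and not for others. All 4 probes of the Kcnd family, the channels of the fast A-type current, were lower in Group M than in Group C and higher in Group D than in Group M, each at the nominal level, with median differences of -0.97 and 0.84. They measure 3 genes, Kcnd1 among them, which is named here after its values were seen. The median of Kcnn, the small- and intermediate-conductance calcium-activated channels, was -0.26 and then 0.45, and that of Kcnh -0.18 and then 0.33. The sign of these 3 medians, and of Kcne, Kcnip and Kcnj, held under each of 20 other settings in both comparisons. These medians include dim probes. Of the probes, 4 of 20 in Kcnj and 1 of 5 in Kcnip were well above background on every array. In Kcnn 3 were, and 2 of these measure Kcnn4. Over the 4 such Kcne probes, the median was -0.005 in Group D vs Group M, where all 6 gave 0.25. In Kcnk 5 probes were lower and 3 higher in Group M at the nominal level, and its median of -0.02 changed sign under 6 of the 20 settings. In Kcnm 0 of 8 probes reached the nominal level in Group M vs Group C, and its median of 0.08 changed sign without C2. The medians of Kcna changed sign when single rats were left out, C1 in Group M vs Group C and M7 or D11 in Group D vs Group M.

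The epithelial channels held some of the genes with the smallest p. Of 9 genes with a known place in the epithelium, 6 passed on all 11 arrays. In all, 4 were lower and 1 higher in Group M than in Group C at the nominal level, and 4 were higher and 0 lower in Group D than in Group M. Of all probes, 12.9% were lower and 9.86% higher in the former comparison, and 11.8% higher and 9.85% lower in the latter. None passed the adjusted threshold of limma.

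Kcne2, an auxiliary subunit that pairs with Kcnq1 in epithelia, had log2 signals of -2.90, -3.03, -3.63 and -3.15 in C1 to C4. They were -3.97, -3.70, -4.70 and -4.16 in M5 to M8, and -3.00, -3.01 and -2.60 in D9 to D11. All rats of Group M lay below all rats of Groups C and D, and D12, at -3.58, lay above Group M as well. The difference was -0.95 ± 0.23 (SE) in Group M vs Group C (adjusted p = 0.0975 by limma) and 1.26 ± 0.24 in Group D vs Group M (adjusted p = 0.0714), where it passed the criterion of the methods. Kcne2 rose past the adjusted threshold of limma in Group D vs Group M with the normexp background correction and where only probes well above background in a group were tested.

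Kcnn4, the intermediate-conductance calcium-activated channel of the crypt that drives chloride secretion, was measured by the probes whose sequences are shown above. By the brighter one the signals were 0.90, 0.87, 0.79 and 0.36 in Group C, and 0.13, 0.30, 0.34 and 0.15 in Group M. In D9 to D11 they were 1.11, 0.82 and 0.75. Group M lay below both other groups without overlap, with C4 only just above M7, and D12, at 0.58, lay above Group M. The difference was -0.50 ± 0.14 (SE) in Group M vs Group C (adjusted p = 0.109 by limma) and 0.67 ± 0.15 in Group D vs Group M (adjusted p = 0.0835). The other probe gave -0.51 ± 0.14 and 0.74 ± 0.15 (adjusted p = 0.109 and 0.0747 by limma), and its groups did not overlap in either comparison.

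Kcnk5, the TASK-2 leak channel, had signals of 2.68, 1.85, 2.02 and 2.06 in Group C and 1.30, 1.92, 1.73 and 1.52 in Group M. They were 2.57, 2.33 and 2.45 in D9 to D11. M6 lay within Group C, while Group D lay above all of Group M, and D12, at 1.53, lay among Group M. The differences were -0.53 ± 0.19 (SE, adjusted p = 0.146 by limma) and 0.84 ± 0.20 (adjusted p = 0.0901).

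Kcnq1, the pore of the basolateral potassium current of the colon, had signals of 2.62, 2.26, 2.55 and 2.46 in Group C and 1.67, 2.62, 1.93 and 1.83 in Group M. They were 2.65, 2.51 and 2.37 in D9 to D11. In M6 it was as high as in Group C, the other rats of Group M lay below Group C, and D12 was the lowest of all 12 at 1.5. The differences were -0.46 ± 0.19 (SE, adjusted p = 0.187 by limma) and 0.50 ± 0.20 (adjusted p = 0.198), and the second probe, in which M6 also stood within Group C, gave -0.56 ± 0.18 in Group M vs Group C (adjusted p = 0.122) and missed the nominal level in Group D vs Group M (adjusted p = 0.232).

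Kcne3, which holds Kcnq1 open in the colonic crypt, went another way. Its signals were 0.89, 0.47, 0.89 and 0.62 in Group C, 0.88, 1.22, 1.51 and 1.38 in Group M and 1.76, 1.34 and 1.0 in D9 to D11. Group D lay above Group C without overlap, while M5 and D12, at 0.74, lay within Group C. The difference was 0.53 ± 0.19 (SE) in Group M vs Group C (adjusted p = 0.15 by limma) and 0.65 ± 0.21 in Group D vs Group C (adjusted p = 0.694). Of the other epithelial genes, Kcne1 and Kcnj13 were well above background on 1 array each, and Kcnj16 on none.

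Kcnma1, the pore of the BK channel, is found in both epithelium and muscle. By its brightest probe the means were -3.02 ± 0.39 (SD, n = 4) in Group C, -2.88 ± 0.18 (SD, n = 4) in Group M and -3.12 ± 0.35 (SD, n = 3) in Group D. Its 3 probes were clear on all 11 arrays, none reached the nominal level in any comparison, and their differences did not share a sign. Its muscle partner Kcnmb1 lay at -3.10 ± 0.31 (SD, n = 4), -2.97 ± 0.22 (SD, n = 4) and -3.01 ± 0.34 (SD, n = 3). The spread within groups was larger than the distance between their means.

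**Figure D3:**
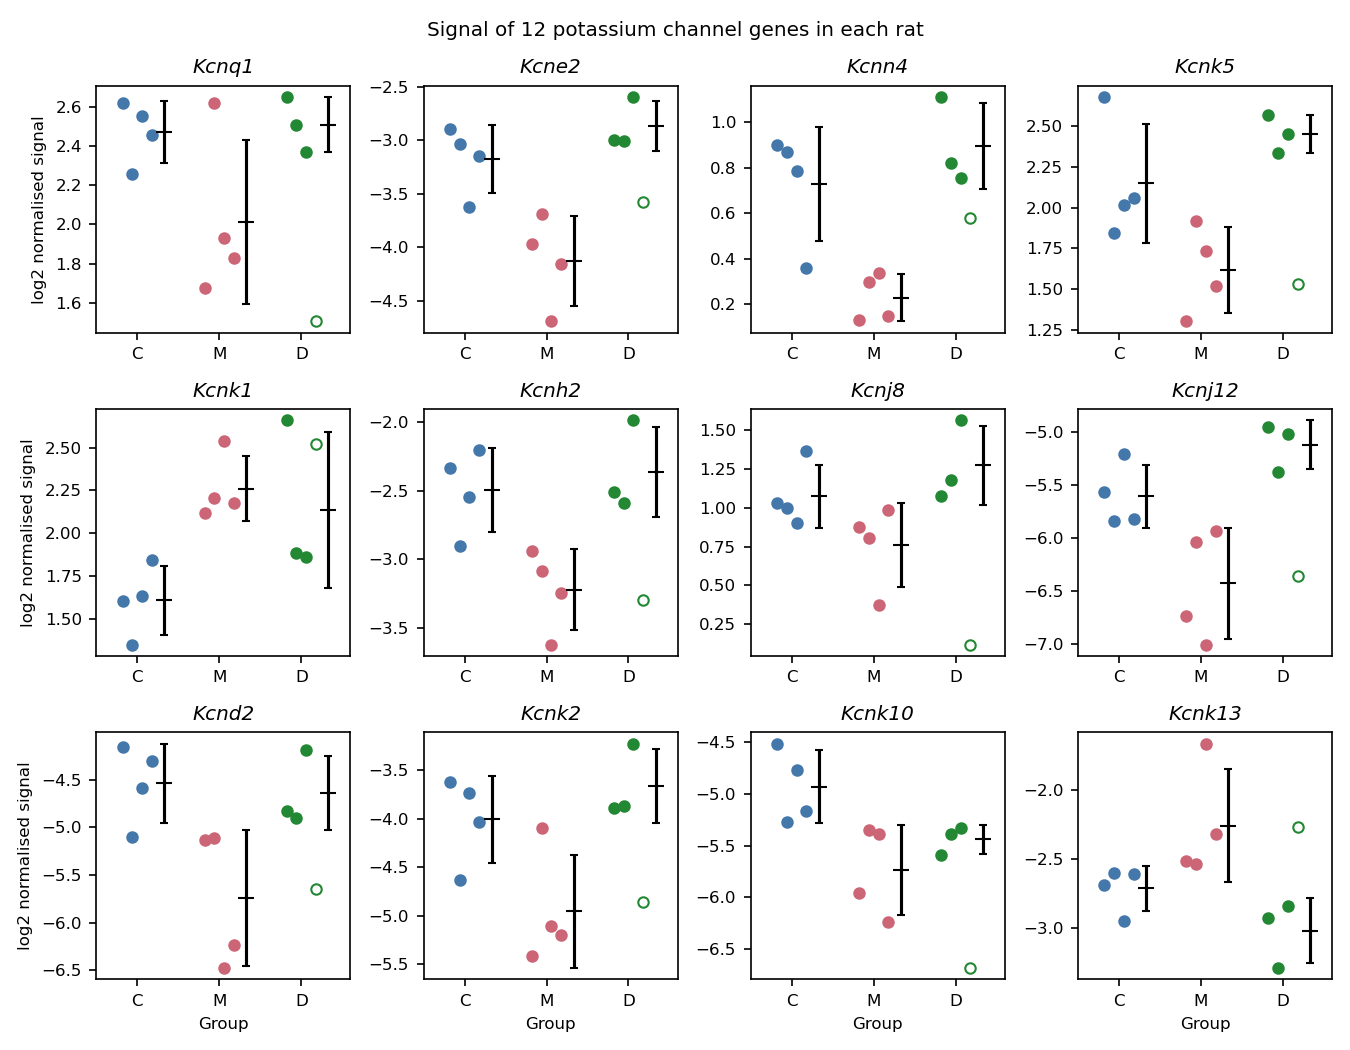
Log2 normalised signal (vertical axes) of 12 potassium channel genes in each rat of Groups C, M and D (horizontal axes), each by its brightest probe, with the mean ± SD of the 11 arrays in black and rat D12, outside these means, as an open circle. In Kcne2 and Kcnn4 all rats of Group M lie below all others, while in Kcnk1 they lie above Group C, and D12 lies near or below Group M in Kcnq1, Kcnh2, Kcnk10 and Kcnd2.

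Among genes of smooth muscle and pericytes, 8 in all, 5 were well above background on every array. At the nominal level, 1 was higher and 1 lower in Group M than in Group C, and 3 were higher and 1 lower in Group D than in Group M, where 22.7% and 21.6% of all probes reached it in either direction. Kcnh2, the ERG channel that limits the excitability of gut muscle, had signals of -2.34, -2.91, -2.55 and -2.20 in Group C and -2.94, -3.08, -3.62 and -3.24 in Group M. They were -2.51, -2.59 and -1.99 in D9 to D11. Group M lay below both groups, by a narrow margin to C2, and D12, at -3.29, lay among Group M. The differences were -0.72 ± 0.20 (SE, adjusted p = 0.111 by limma) and 0.86 ± 0.22 (adjusted p = 0.0963), and the dimmer probe gave 0.69 ± 0.30 in Group D vs Group M (adjusted p = 0.21). In Group M vs Group C the dimmer probe missed the nominal level, with M5, M6 and M8 within Group C.

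Kcnj8, the Kir6.1 pore of ATP-sensitive channels in pericytes and muscle, differed by 0.51 ± 0.18 (SE) in Group D vs Group M (adjusted p = 0.15 by limma). D9 to D11 gave 1.08, 1.18 and 1.56, above the range of 0.37 to 0.99 in Group M, but D12 gave 0.12, the lowest of all 12 rats.

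Kcnk3, the TASK-1 leak channel, lay above Group C in all 4 rats of Group M, at -2.24, -2.46, -2.02 and -2.21, while C1 to C4 gave -2.49, -2.69, -2.56 and -2.48. The gap between M6 and C4 was small. The difference was 0.32 ± 0.12 (SE, adjusted p = 0.158 by limma), and in Group D vs Group M it was -0.31 ± 0.13 (adjusted p = 0.208). Of the others of this group, Kcna5 and Kcnj11 were well above background on 1 array each. Kcnq5 has no probe of that name, and its former name Kcnq5l has.

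Of 18 genes of enteric and sensory neurons, 11 passed on all 11 arrays and 7 on none. At the nominal level, 5 were lower and 0 higher in Group M than in Group C, and 5 were higher and 1 lower in Group D than in Group M. These 5 and 6 of 18 genes stand against 22.7% and 21.6% of all probes in either direction. Among the 5 in each comparison, 1 gene, Kcnn2, was never well above background, and neither was Kcna1 in Group D vs Group M.

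Kcnd2, which carries A-type current in neurons and also in muscle, fell in Group M by the criterion of the methods with both of its probes. By the brighter one the signals were -4.16, -5.10, -4.59 and -4.31 in Group C and -5.14, -5.12, -6.47 and -6.24 in Group M. They were -4.83, -4.90 and -4.19 in D9 to D11. M7 and M8 were far below the rest, M5 and M6 lay just below C2, and D12, at -5.64, lay among Group M. The differences were -1.20 ± 0.35 (SE, adjusted p = 0.112 by limma) and 1.1 ± 0.38 (adjusted p = 0.144). The other probe gave -1.86 ± 0.49 and 1.52 ± 0.53 (adjusted p = 0.105 and 0.148 by limma), but it was well above background on 1 of 4 arrays in Group M, and its values in M6 and C2 crossed. Kcnd3, the other A-type channel of the named genes, differed by -0.75 ± 0.24 and 0.58 ± 0.26 (adjusted p = 0.125 and 0.22 by limma). M6 stood above the other rats of Group M, at -5.30, and within Group C.

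Kcnk2, the TREK-1 leak channel opened by stretch, heat and lipids, had signals of -3.62, -4.63, -3.73 and -4.04 in Group C and -5.41, -4.10, -5.10 and -5.20 in Group M. They were -3.89, -3.87 and -3.22 in D9 to D11, all above Group M. M6 lay within Group C, and D12, at -4.85, lay below Groups C and D. The difference was -0.95 ± 0.32 (SE) in Group M vs Group C (adjusted p = 0.134 by limma) and 1.29 ± 0.34 in Group D vs Group M (adjusted p = 0.0995), where it passed the criterion of the methods. Its other probes were near background. The dim probe whose sequence is shown above was well above background in 3 of 11 rats, and never in Group M, with -4.74 in C3 and no other rat above -6.48, while the third was above background on none.

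Kcnk10, the TREK-2 channel of the same family, had signals of -4.51, -5.27, -4.77 and -5.16 in Group C. They were -5.96, -5.35, -5.39 and -6.24 in Group M and -5.59, -5.39 and -5.33 in D9 to D11. Both groups of separated rats lay below Group C, and D12, at -6.68, was the lowest of all 12. The difference was -0.80 ± 0.23 (SE) in Group M vs Group C (adjusted p = 0.111 by limma) and -0.51 ± 0.25 in Group D vs Group C (adjusted p = 0.865). The second probe gave -0.97 ± 0.25 and -0.83 ± 0.27 (adjusted p = 0.104 and 0.721 by limma), and its groups did not overlap in either comparison. The difference between Group D and Group M missed the nominal level with both probes.

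Several other neuronal genes were clear in signal and did not reach the nominal level. Kcnn3, the SK3 channel, lay at -3.02 ± 0.08 (SD, n = 4), -2.87 ± 0.22 (SD, n = 4) and -3.00 ± 0.14 (SD, n = 3) in Groups C, M and D. Kcnq3, a subunit of the M-current, lay at -4.16 ± 0.37 (SD, n = 4), -4.29 ± 0.54 (SD, n = 4) and -4.13 ± 0.50 (SD, n = 3). Kcnj3, a channel opened by G proteins, lay at -4.85 ± 0.28 (SD, n = 4), -4.81 ± 0.20 (SD, n = 4) and -5.02 ± 0.28 (SD, n = 3). Kcnb2 and Kcnip3 were also above background on every array, and none reached the nominal level in a comparison. By contrast Kcns3, a silent subunit, was lower in Group D than in Group M by -0.44 ± 0.19 (SE, adjusted p = 0.223 by limma), with M6, at -3.25, level with D11.

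Kcnj12 (Kir2.2), a strong inward rectifier, had signals of -5.57, -5.84, -5.21 and -5.82 in Group C and -6.74, -6.04, -7.01 and -5.93 in Group M. They were -4.95, -5.38 and -5.02 in D9 to D11. Group M lay below both, well above background on 2 of its 4 arrays, and D12, at -6.36, lay among Group M. The difference was -0.82 ± 0.25 (SE, adjusted p = 0.121 by limma) and 1.31 ± 0.27 (adjusted p = 0.0757), and the second passed the criterion of the methods. Of the immune channels, Kcnj2 was well above background on no array and Kcna3, the Kv1.3 channel of lymphocytes, on 2, both in Group M, and in D12, where it was highest at -5.96.

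Kcns1, a silent subunit known from sensory neurons, passed the criterion of the methods in both comparisons on a dim probe. Its signals were -7.81, -7.13, -6.39 and -6.84 in Group C and -7.32, -8.37, -8.34 and -8.45 in Group M. They were -7.27, -6.87 and -6.60 in D9 to D11. It was well above background on 1 array of Group C, 1 of Group D and none of Group M, so that most of its values are near background and no fold is given. The adjusted p was 0.121 and 0.118 by limma.

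Some leak channels were higher in Group M. Kcnk1, the TWIK-1 channel, had signals of 1.60, 1.35, 1.63 and 1.84 in Group C, 2.12, 2.20, 2.54 and 2.17 in Group M and 2.66, 1.88 and 1.86 in D9 to D11. Both separated groups lay above Group C without overlap, and so did D12 at 2.52. The difference was 0.65 ± 0.19 (SE, adjusted p = 0.114 by limma) in Group M vs Group C, while Group D vs Group C gave 0.53 ± 0.21 (adjusted p = 0.789). Kcnk13, the THIK-1 channel of microglia and macrophages, had -2.69, -2.60, -2.95 and -2.61 in Group C, -2.51, -2.54, -1.66 and -2.32 in Group M and -2.93, -3.29 and -2.84 in D9 to D11. M7 stood far above the rest, and D12, at -2.27, lay among Group M. The difference was 0.46 ± 0.20 (SE, adjusted p = 0.205 by limma) and then -0.76 ± 0.21 (adjusted p = 0.107). Its other probe, also clear on every array, was lowest in M7 and had means of -5.06 ± 0.13 (SD, n = 4), -5.16 ± 0.28 (SD, n = 4) and -4.85 ± 0.29 (SD, n = 3), in the opposite order. The summed signal of 6 macrophage markers was 17.3 to 23.8 in Group C, 20.4 to 27.0 in Group M and 16.4 to 18.1 in D9 to D11, as a multiple of the 75th percentile of the array, and 26.1 in D12. All 6 were lower in Group D than in Group M at the nominal level, where 9.85% of all probes were. Their part in the values of Kcnk13 was not tested. Kcnk6 (TWIK-2), listed here with the genes of immune cells, differed by -0.49 ± 0.18 and 0.59 ± 0.20 (adjusted p = 0.159 and 0.14 by limma). M6, at 3.05, lay inside Group C, and D12, at 2.14, was the lowest of all 12.

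**Figure D4:**
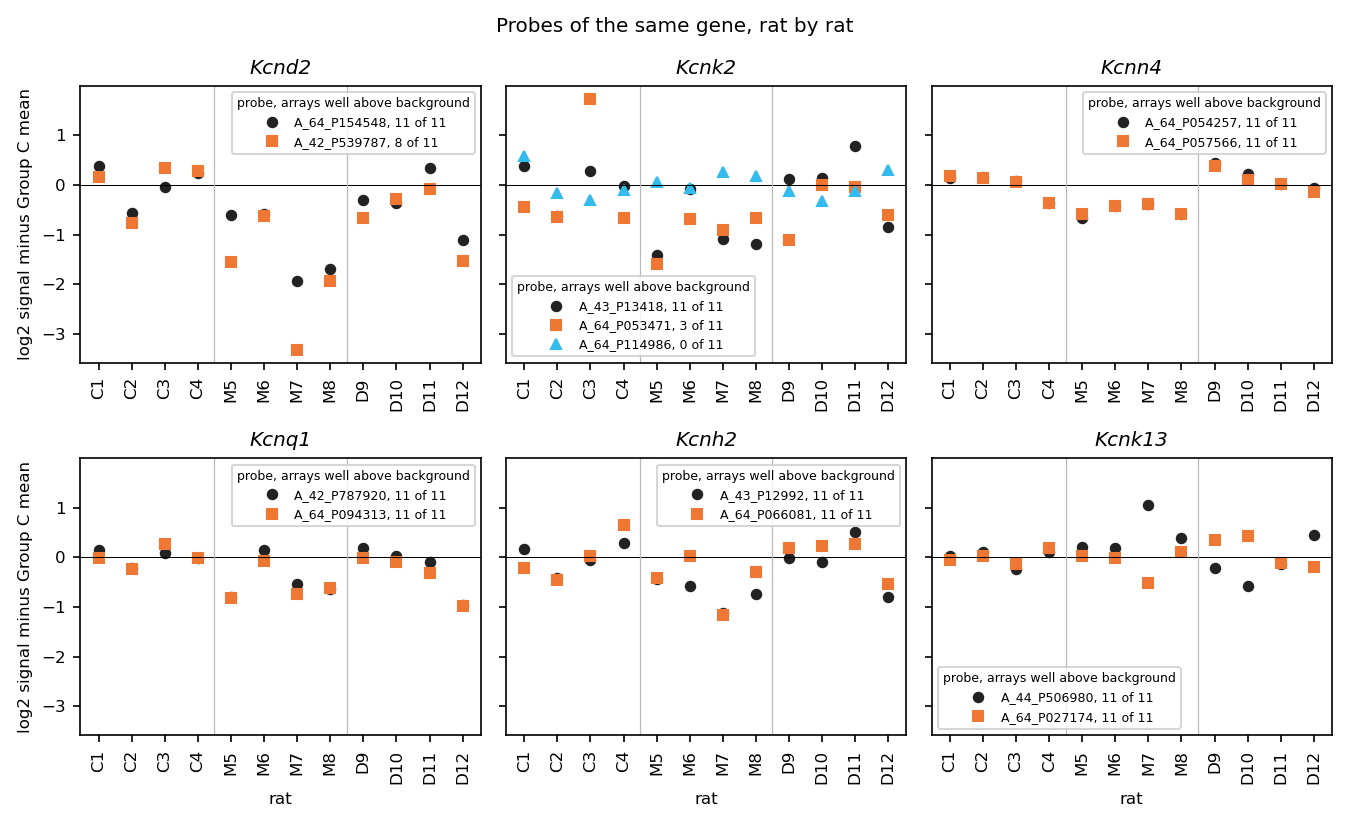
Log2 signal of each rat minus the Group C mean of the same probe (vertical axes) for the probes of 6 genes, over rats C1 to D12 (horizontal axes), with the number of the 11 arrays on which a probe was well above background. The probes of Kcnn4 and of Kcnq1 lay close together in most rats, while those of Kcnd2 were apart in M7 and those of Kcnh2 in M6. The probes of Kcnk13 stood on opposite sides of 0 in M7 and D10, and the dim probes of Kcnk2 were well above background on 3 and 0 of the 11 arrays.

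Several genes had more than 1 probe, and the probes did not always share a sign. Of 28 such genes, 11 had probes of opposite sign in Group M vs Group C, and for Group D vs Group M the number was 18. Where all probes of a gene passed on all 11 arrays, 4 of 7 genes had opposite signs in each of these comparisons, Kcnk13 among them.

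The gene with the smallest p in Group D vs Group C was Kcnh1, the EAG1 channel. Its signals were -5.22, -5.53, -5.51 and -4.88 in Group C, -5.10, -4.87, -5.00 and -4.60 in Group M and -4.13, -4.48 and -4.50 in D9 to D11. Group D lay above both groups, but D12 gave -5.48, near the lowest of Group C. The difference was 0.92 ± 0.19 (SE, adjusted p = 0.363 by limma), and with D12 included it was 0.64 (adjusted p = 0.701). Kcnj14 was higher by 0.43 ± 0.19, and Kcnj5 and Kcne1l (now Kcne5) were lower by -0.44 ± 0.19 and -0.63 ± 0.25, with an adjusted p of 0.832, 0.823 and 0.789 by limma. The other Kcne1l probe, well above background on 10 of 11 arrays, missed the nominal level in Group D vs Group C (adjusted p = 0.999 by limma).

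Rat D12 did not lie with the other rats of its group in these genes. Over the 47 genes well above background on every array, D9, D10 and D11 were nearer to the Group C mean than to the Group M mean in most, with 19, 12 and 11 genes nearer to Group M. In D12 30 of the 47 genes were nearer to Group M. Its median distance was 0.42 to the Group C mean and 0.39 to the Group M mean. M6 was the farthest from its own group among the 11 rats, with a median distance of 0.33 to the mean of the other Group M rats, where the 11 rats ranged from 0.16.

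The pathways around these channels were taken from a list of 47 partner genes, of which 43 were measured and 34 well above background on every array. The list holds transporters and pumps that work with potassium channels, ATP-sensitive subunits, sodium and chloride channels and calcium channels. Ano1 and Abcc9 are in it and also in the interstitial cell and pericyte marker lists below, so these counts share values. In Group M vs Group C 3 partner genes were higher and 11 lower at the nominal level, and in Group D vs Group M 15 were higher and 2 lower. Of all probes, 9.86% were higher and 12.9% lower in the former and 11.8% and 9.85% in the latter. The medians were -0.27 and 0.37, and none passed the adjusted threshold of limma. In each, 1 passed the criterion of the methods, Atp12a in the latter, where 2.33% and 2.65% of all probes did. The 1 in Group M vs Group C was lower in Group M and well above background on 9 of 11 arrays. Slc12a2 (NKCC1), which loads chloride and potassium into the crypt cell, passed that criterion in neither comparison. It differed by -0.70 ± 0.19 (SE) and 0.78 (adjusted p = 0.109 and 0.1 by limma). Atp12a, the colonic proton-potassium pump, differed by 2.84 in Group D vs Group M (adjusted p = 0.0897).

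Markers of some cell types also differed between the groups, in either direction. The tissue was colon by its markers, with 11 of 11 epithelial and 9 of 9 measured smooth muscle markers well above background on every array. All 4 markers of interstitial cells of Cajal were lower in Group M and higher in Group D at the nominal level, with medians of -0.65 and 0.75. Their summed signal, as a multiple of the 75th percentile of the array, was 8.92 to 14.1 in Group C, 5.49 to 10.7 in Group M and 11.7 to 12.9 in D9 to D11, while D12, at 5.38, lay below all. Within Group M this sum was highest in M6. A sum weighs bright probes most, and this one was almost all Ano1. In Group C Ano1 averaged 3.43 on the log2 scale, where Kit, Etv1 and Edn3 averaged -2.94, -4.61 and -2.56. From rat to rat the sum thus follows 1 gene. By the brightest probes, M6 stood nearest to the Group C mean in Kcnk2, Kcnd3, Kcnq1, Kcne2, Kcnk5, Kcnk6 and Kcnk3. By a small margin it was also nearest in Kcnd2, Kcnk10 and Kcnk13. The nearest was M5 in Kcnh2, Kcne3, Kcnk1, Kcnh1 and Kcns1, M8 in Kcnj12 and M7 in Kcnn4. The 6 mast cell markers were higher in Group M, from 1.54 to 2.22 where Group C had 0.67 to 0.827 and D9 to D11 0.971 to 3.06. Markers of T cells summed to 5.06 in C2 and 9.51 in D12, and to 0.685 in M6 where Group M reached 4.39. B cell markers ran likewise, at 5.43 in C2, 14.0 in D12 and 0.281 in M6. Skeletal muscle markers, of which 3 of 8 were higher in Group M at the nominal level and 2 rose by the criterion of the methods, summed to 0.774 in M6 and up to 2.04 in Group M where Group C had 0.659 to 1.22. Of 5 glial markers 2 were higher in Group M, and 3 lower and 1 higher in Group D at that level, and of 5 neutrophil markers 3 were higher and then 2 lower, with M6 the lowest of Group M in both sums. Of 5 pericyte markers 2 were lower in Group M and 3 higher in Group D, and D12 had the lowest sum at 2.53. Summed signals of smooth muscle (184 to 232, 183 to 258 and 201 to 257 in Groups C, M and D) and epithelium (255 to 317, 249 to 368 and 273 to 348) overlapped between the groups. Single markers of both did differ at the nominal level. Of 9 smooth muscle markers 1 was higher in Group M and 2 higher in Group D. Of 11 epithelial markers 2 were higher and 1 lower in Group M, and 3 higher and 0 lower in Group D. Car1 among them passed the criterion of the methods in both comparisons, at -1.62 and 1.78. None of the 16 lists had a marker below background on all 11 arrays. Their part in the differences of the potassium channel genes was not tested. In tissue of several cell types, fewer cells of a type and less RNA per cell cannot be told apart.

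**Figure D5:**
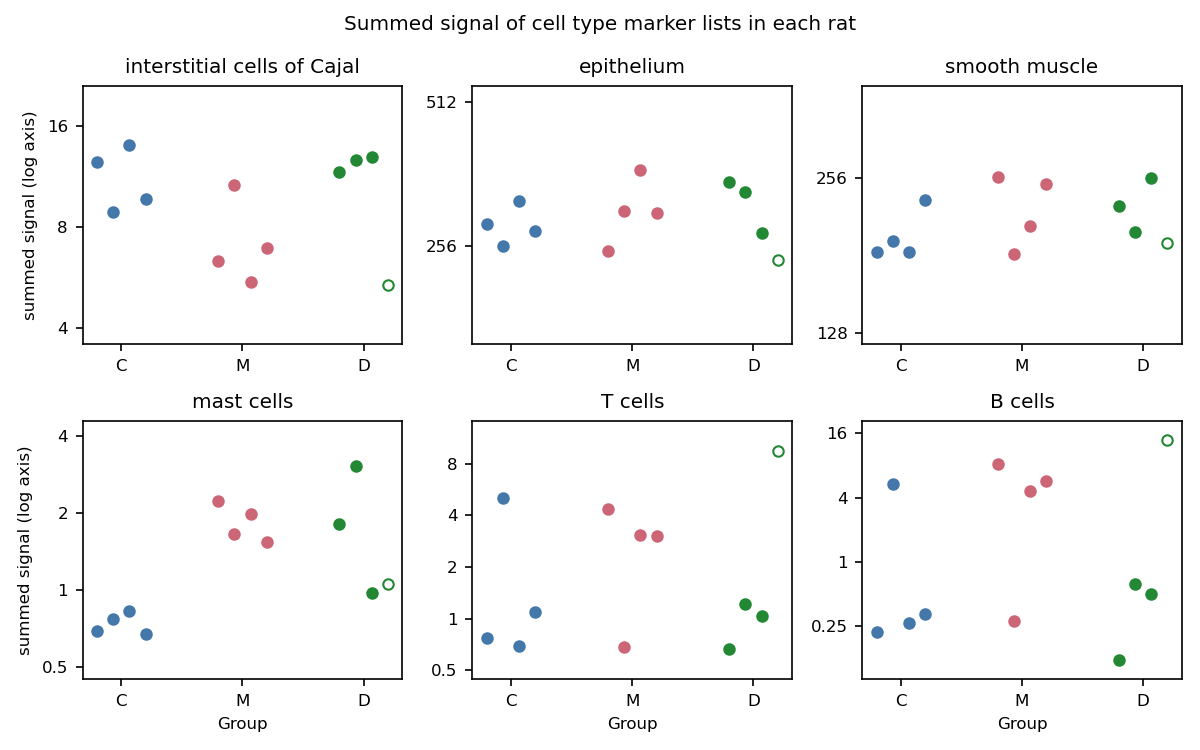
Summed signal of 6 lists of cell type markers (vertical axes, log scale, multiples of the 75th percentile of the array) in each rat of Groups C, M and D (horizontal axes), with D12 as an open circle. The sum of interstitial cell markers, almost all Ano1, is lowest in M7 and D12 and in Group M highest in M6. B cell markers are high in C2, D12 and all rats of Group M but M6.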

How the data were processed

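Colonic RNA of 12 rats was hybridised to 1-colour Agilent arrays of 62976 spots, 4259 of them controls. The intensity values were deposited by the authors as the Feature Extraction 10.5.1.1 processed signal, background-subtracted per the file headers, against rn4. The authors also deposited a matrix of log2 values, used here as an alternative. Each array's log2 75th percentile was subtracted from its log2 signals, without control and outlier spots, and spots of a probe were averaged. The number of arrays limits the precision, and p-values set a difference against the spread between rats within groups. The sample titles and the methods of the study name no litters, so rats of a group may share a dam.

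Groups were taken from the labels. Differences were tested with limma 3.58.1 (R 4.3.3) in 1 model of 3 groups over 11 arrays, moderated, with Benjamini-Hochberg adjustment over 30367 probes, and the code was tested on simulated data. Variance analysis with Tukey's test followed the study's methods. Of the probes, 19 lacked a value on some array. A gene's probe with the highest mean signal stands for it where 1 is given. Well above background is the scanner software's call. Named genes were those with a known place in the epithelium, muscle, neurons or immune cells, those past the criterion of the methods, and the 8 smallest p per comparison. The members and lists were chosen with earlier results of these data known. Alternatives were all 12 arrays, normexp with offset 50, quantile normalisation, a median shift, the deposited matrix, outlier spots kept, bright probes only, a replicate block, array weights, only the groups compared, and each rat left out. The counts at p of 0.05 or less, the subfamily medians and their alternatives were added after seeing the data.

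All 92 gene names were matched to RefSeq symbols, and Kcne1l and Kcnq5l have been renamed. The values of 3 genes are not reported here, though counts include them. Exon positions of the probes were not analysed here. Figures were drawn with Python 3.11.15 and matplotlib 3.10.9.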

Additional observations from a re-analysis of the deposited data

Results flagged for a closer look

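Among 147 groups of 4 rats (49 probes, D12 included), 10 held a rat far from the other 3 by Dixon's test, and chance gives about 5% of such groups. Rat C2 was low in the dimmer Kcnd2 probe, at -6.3559 where the others lay between -5.4239 and -5.2465, and high in Kcns3 (-2.547). C3 was high in Kcna5 at -6.6274 and C4 in Kcnmb1 at -2.6464. C4 was low in a Kcnn4 probe, at -0.33958 where the others lay between 0.0884 and 0.166. M6 was high in Kcnd3, at -5.303 against -5.77 to -5.75, and in Kcnn2, at -7.671. M5 was high in Kcns1, at -7.3243, and low in Kcnj14, at -2.9947. In Group D, D12 was low in the dimmer Kcnh2 probe, at -4.5621 against -3.84 to -3.77.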

How the results depend on the processing

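No log2 difference of a potassium channel gene given in the report changed sign under an alternative, while medians of subfamilies did. Most of these gene differences were picked by a small p in the same data, which makes a stable sign likely beforehand. Of the gene differences recomputed, 1119 kept their side of the adjusted threshold while 72 came to pass it, 39 of these with array weights and 28 without M6. For Group M vs Group C, limma passed 32 probes with array quality weights (28% of all probes), 13 at an unadjusted p of 0.01 or less, and 0 to 17 when a rat was left out. The criterion of the methods gave 0 with normexp, 0 with the replicate block, 9 with weights and 1 to 5 without a rat, the lowest without C1, C3, C4 or M8 and the highest without C2 or M6. Of all probes, 1.11% met it with the block and 6.6% with weights. The nominal level gave 47 with weights, where 40% of all probes reached it. For Group D vs Group M, limma passed 2 with normexp (Kcne2 and Kcnn4, 1.09% of all probes), 3 with only probes well above background in a group (Kcne2, Kcnj12 and Kcnn4, 1.37%), 28 with weights (22.6%), 11 at p of 0.01 or less and 0 to 17 without a rat. The criterion gave 2 with all 12 arrays, 0 with normexp, 2 with the block, 8 with weights and 2 to 6 without a rat, the lowest without D11. Of all probes, 1.22% met it with the block and 6.65% with weights. The nominal level gave 21 to 36 without a rat, where 15.8% to 30.4% of all probes reached it. For Group D vs Group C, limma passed 1 at p of 0.01 or less and 0 without any rat, the criterion 1 with all 12 arrays, 1 with the block and 0 to 1 without a rat, and the nominal level 12 with all 12 arrays, 14 with weights, 13 with only the groups compared and 2 to 11 without a rat. Of all probes, 7.67% reached the nominal level with weights and 6.92% with only the groups compared, and 0.25% met the criterion with the block. The cause of these shifts was not tested. Replicate numbers did not pair the rats, since deviations of the 10 same-numbered pairs correlated at -0.559 to 0.126 and 1 of 10 was the best partner, so the block is given here only. Groups of 4 and 3 rats, probes near background and the shared slide of Group D limit every comparison.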
